A study of Mus musculus with 3 samples.

Results

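The peaks of mouse chromosome 10 were taken from the ChIP-seq peak lists of 3 antibodies in NE4C cells, an established mouse neural stem cell line, and were counted in 5 Mb steps from the start of the chromosome (mm9). Of the H3K79Hcy list, 434 of 7387 regions lay on chromosome 10 (5.88%), of the KHcy list 424 of 7300 (5.81%) and of the H3K4me3 list 772 of 19339 (3.99%), which made 1630 of 34026 in all (4.79%). The chromosome was chosen by its mixed peak density, so its stretches were selected on the measured peak counts, and the difference in density between them is a description without a test. The cells of all 3 libraries were grown in Eagle MEM on poly-L-lysine, as the control without homocysteine thiolactone (HTL) in the study, and each antibody had 1 library. The antibodies were raised against homocysteinylated lysine 79 of histone H3 (H3K79Hcy), homocysteinylated lysine regardless of its position (KHcy) and trimethylated lysine 4 of histone H3 (H3K4me3), the last serving the study as the positive control. With 1 library for each antibody there was no replicate error, and every interval below is a 95% interval for counting error only (exact Poisson for counts and their ratios, Wilson for shares, order statistics for medians). Only peaks were used here, without the reads outside them, so whether the lists are complete in a stretch where they hold few peaks cannot be told from them, and this bears on every ratio and every count of 0 below.

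Cells form homocysteine when S-adenosylmethionine gives up its methyl group, and the cyclic thiolactone form can attach to lysine side chains, which is known as N-homocysteinylation. Lysine 79 of histone H3 lies on the outer surface of the nucleosome core, where the enzyme Dot1l places methyl groups that mark transcribed gene bodies. H3K4me3 is known for its narrow enrichment at the starts of active genes, and in neural stem cells it marks housekeeping genes as well as genes of the neural lineage. Long mammalian chromosomes alternate between gene-rich regions of high GC content and gene-poor regions of low GC content.

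To show the sequence at the places on which the results turned, the central 200 bases of 4 peaks are given from the plus strand of the mm9 assembly, with CG dinucleotides in capitals. The first was the peak of largest reads per 200 bp among the chromosome 10 peaks of all 3 lists (chr10:21862601-21862800), outside genes. The second was the last H3K79Hcy peak before the border at which the dense stretch ended (chr10:72652701-72652900), in an intron of Pcdh15. Next was the strongest KHcy peak beyond that border (chr10:80833301-80833500), over an exon of Fzr1. The last was the H3K4me3 peak of most reads per 200 bp (3.6) among those beyond the border that covered a gene start (chr10:80203901-80204100), that of Ap3d1.
Strongest shared peak: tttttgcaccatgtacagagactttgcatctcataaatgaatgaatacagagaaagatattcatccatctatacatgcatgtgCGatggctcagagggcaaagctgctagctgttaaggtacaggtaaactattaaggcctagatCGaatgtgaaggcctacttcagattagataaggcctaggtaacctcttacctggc
Last H3K79Hcy peak before the border: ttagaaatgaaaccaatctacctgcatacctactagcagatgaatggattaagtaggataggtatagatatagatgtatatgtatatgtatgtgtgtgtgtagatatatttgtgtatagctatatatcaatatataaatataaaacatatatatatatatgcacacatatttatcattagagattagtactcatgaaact
Strongest KHcy peak beyond the border: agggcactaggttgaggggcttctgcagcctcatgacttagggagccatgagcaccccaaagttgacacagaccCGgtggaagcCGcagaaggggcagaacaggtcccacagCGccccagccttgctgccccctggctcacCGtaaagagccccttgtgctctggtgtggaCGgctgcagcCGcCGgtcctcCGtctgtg
Centre of the H3K4me3 peak whose end covers the Ap3d1 start: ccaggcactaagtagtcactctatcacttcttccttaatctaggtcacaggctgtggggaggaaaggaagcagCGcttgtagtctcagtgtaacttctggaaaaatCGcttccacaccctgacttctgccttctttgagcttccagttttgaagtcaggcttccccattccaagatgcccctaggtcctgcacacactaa
The 4 sequences differed widely in composition. The sequence in Fzr1 held 8 CG dinucleotides at a GC content of 64%, whereas that in Pcdh15 held 0 at 26%, and the other two held 2 each at 41.5% and 49%.

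The first question was where peaks were dense and where they were sparse. A step was called dense in a library where it held at least the mean count over the 26 steps, namely 16.7 in the H3K79Hcy library, 16.3 in the KHcy library and 29.7 in the H3K4me3 library. Both homocysteinylation libraries had 14 dense steps, and these were the same steps, the second to the fifteenth (5 to 75 Mb). In H3K79Hcy the lowest dense step held 17 peaks and the highest sparse step 7. In KHcy the corresponding counts were 17 and 6, so in counts per step the limit fell in a wide empty interval. That sparse step was the first in both libraries, and it holds only 2 Mb outside assembly gaps. The lowest dense steps hold 5 Mb, so the interval was not wide per Mb of known sequence. H3K4me3 held 21 peaks in the same 2 Mb, a step called sparse by its count. H3K4me3 had 9 dense steps, with 30 peaks in the lowest of them and 23 in the highest sparse step, which left a narrower interval around the limit.

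Step by step, H3K79Hcy held 7, 23, 30, 17, 35, 31, 47, 21, 35, 27, 30, 45, 30, 27 and 24 peaks from 0 to 75 Mb. In the 11 steps from 75 Mb to the end it held 1, 1, 0, 0, 0, 1, 0, 2, 0, 0 and 0. KHcy held 6, 25, 17, 24, 44, 20, 38, 26, 34, 19, 33, 37, 45, 30 and 19 peaks up to 75 Mb and then 0, 3, 0, 0, 0, 0, 2, 2, 0, 0 and 0. No step beyond 75 Mb of either library held more than 3 peaks, and no step between 5 and 75 Mb held fewer than 17. H3K4me3 held 21, 46, 23, 30, 54, 18, 22, 42, 116, 19, 20, 69, 134, 81 and 31 peaks and then 9, 21, 2, 2, 2, 0, 0, 0, 3, 1 and 6. It therefore varied far more within the first 75 Mb than the homocysteinylation libraries did, from 18 to 134 peaks per step.

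**Figure D1:**
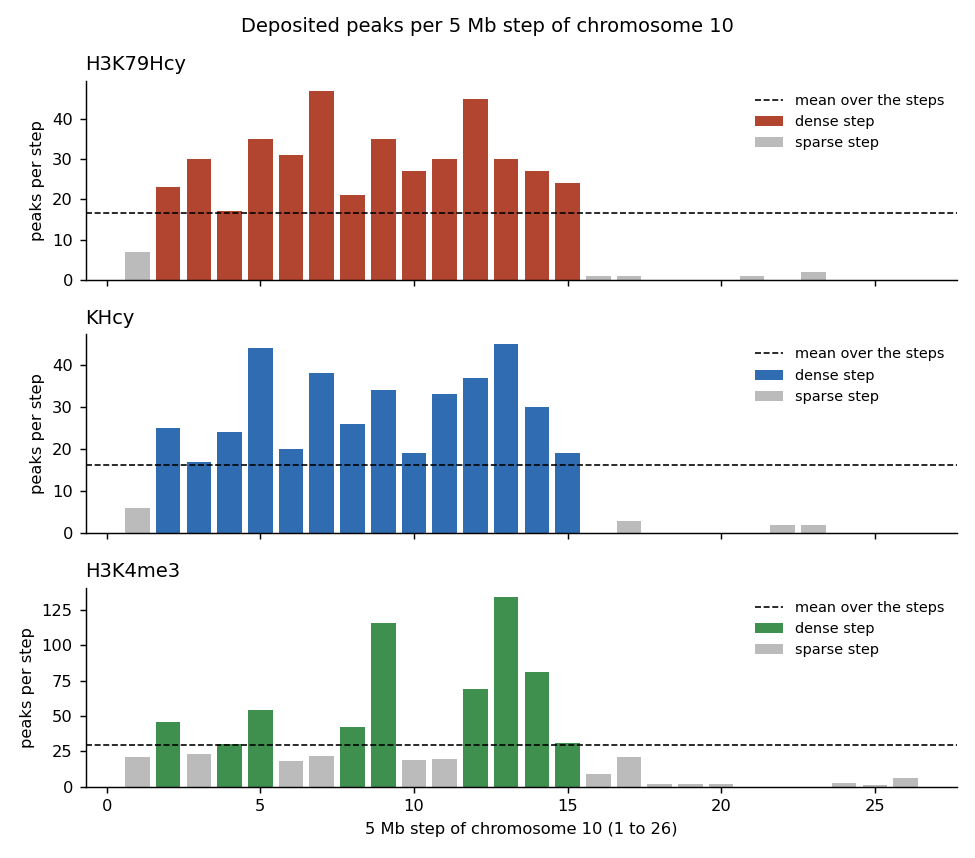
Peaks per 5 Mb step of chromosome 10 (x axis, steps 1 to 26; y axis, number of deposited peaks) in the H3K79Hcy, KHcy and H3K4me3 libraries, with dense steps coloured, sparse steps grey and the mean over the steps as a dashed line. Steps 2 to 15 are dense in both homocysteinylation libraries, whereas H3K4me3 has 9 dense steps with its highest counts, 116 and 134, in steps 9 and 13.

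Such steps were also common over the chromosomes as a whole. Over chromosomes 1 to 19 and X, with chromosome 10 among them, 168 of 529 steps (31.8%) held at least the chromosome 10 mean in H3K79Hcy. In KHcy 163 of 529 (30.8%) did and in H3K4me3 176 of 529 (33.3%). On chromosome 10 the shares were 53.8%, 53.8% and 34.6%, which describe the counts that chose it. An edge at which the 10 Mb on 1 side held at least 10 times the peaks of the 10 Mb on the other was rarer. It was found at 18 of 232 step edges that could be judged (7.76%) in H3K79Hcy, 18 of 233 (7.73%) in KHcy and 25 of 313 (7.99%) in H3K4me3, an edge being judged where the fuller side held at least 20 peaks. The edge of chromosome 10 at 75 Mb was among them for H3K79Hcy (51 against 2 peaks) and KHcy (49 against 3 peaks) but not for H3K4me3. Neighbouring edges were counted separately, and that of chromosome 10 at 80 Mb (25 against 1 peak) was also among them for H3K79Hcy.

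Borders were then placed more finely, as the single change in peak rate of highest Poisson likelihood in 100 kb bins, with the range of positions within 2 log-likelihood units. H3K79Hcy had a first border at 3.5 Mb (3.1 to 4.1) and a last border at 72.7 Mb (72.7 to 72.9). KHcy had a first border at 4.0 Mb (3.7 to 4.5) and a last border at 72.6 Mb (72.6 to 72.8). The last borders of both libraries lay 100 kb apart at the resolution of the bins, and their ranges overlapped. The first 3 Mb of the chromosome are unsequenced in mm9, so the first borders of both libraries lay within 1 Mb of the start of known sequence. H3K4me3 had 8 called borders, at 3.0, 12.6, 17.2, 25.8, 38.3, 44.3, 57.0 and 71.7 Mb (last range 71.7 to 71.8), the first of which is only the end of the unsequenced part. Its last border preceded that of KHcy by less than 1 Mb.

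The last borders of both homocysteinylation libraries fell at the 5′ part of Pcdh15 (chr10:72562090-74112482, plus strand), which encodes a very long protocadherin of hair cell and photoreceptor adhesion. The last H3K79Hcy peak (chr10:72652201-72653400) lay in an intron of the gene and held 25 reads, or 4.17 reads per 200 bp. The next H3K79Hcy peak (chr10:78846801-78847800) lay 6.19 Mb further on, in an intron of Vmn2r82, a member of the large vomeronasal receptor family, and held 20 reads with 4.85% recurring 31-base words. The last KHcy peak (chr10:72542001-72544000) lay outside genes ahead of the Pcdh15 start and held 38 reads. The next KHcy peak (chr10:80829601-80830400) was 8.29 Mb away in Fzr1, which encodes an activator of the anaphase-promoting complex, and held 21 reads. Pcdh15 itself carried 1 H3K79Hcy peak, 0 KHcy peaks and 0 H3K4me3 peaks over its whole body. The last dense H3K4me3 peak (chr10:71670401-71671400; 21 reads) and the next (chr10:72291201-72292600; 26 reads) were both nearest to Zwint, a kinetochore gene, and the one after lay in Snrpd3 (chr10:74980801-74982000; 23 reads), a core component of the spliceosome.

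**Figure D2:**
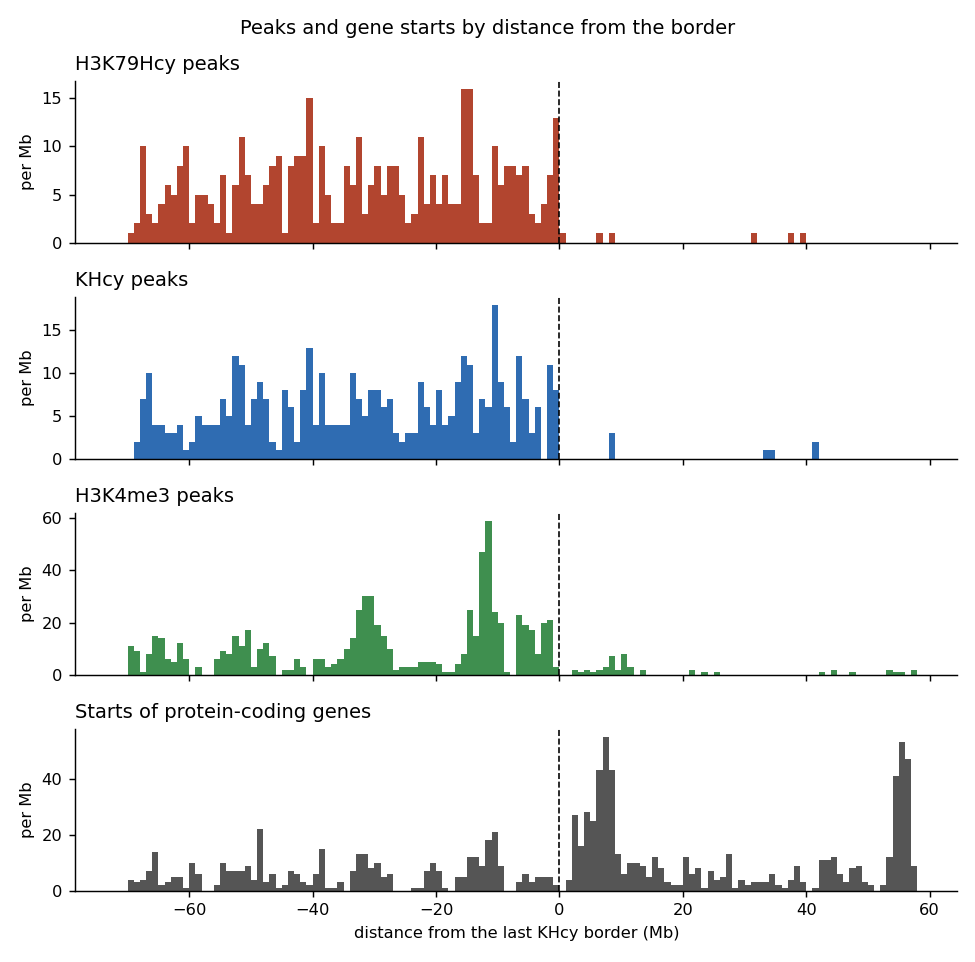
Peaks per Mb of the 3 libraries and starts of protein-coding genes per Mb (y axes) by distance from the last KHcy border in Mb (x axis, negative before it, dashed line at the border). Peaks of both homocysteinylation libraries fill nearly every Mb before the border and are isolated beyond it, where gene starts are at their densest.

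Peak density was then set side by side for all dense and all sparse sequence of each library. Within its own stretches H3K79Hcy held 429 peaks in the dense and 5 in the sparse sequence, or 6.21 against 0.0865 peaks per Mb outside assembly gaps, a ratio of 71.8 (30.5 to 222). KHcy held 417 and 7 peaks, or 6.09 against 0.120 per Mb, a ratio of 50.8 (24.4 to 127). H3K4me3 held 631 and 141 peaks, or 16.3 against 1.6 per Mb, a ratio of 10.2 (8.46 to 12.3). Of the 141 sparse H3K4me3 peaks 93 lay between its dense stretches, and at its last border the density went from 21.2 per Mb in the last dense stretch to 0.823 per Mb beyond. These 3 ratios describe counts that placed the borders.

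The stretches of 1 library can be read in another whose counts did not place them. The chromosome itself was chosen by its mixed peak density, so the ratios below are descriptions as well. Over the KHcy stretches, H3K79Hcy held 427 and 7 peaks, a ratio of 52.0 (25 to 130), and H3K4me3 held 708 and 64, a ratio of 9.44 (7.30 to 12.4). Over the H3K79Hcy stretches, KHcy gave 49.9 (24 to 125). The interval of the H3K4me3 ratio over the KHcy stretches lay below both homocysteinylation intervals. Over the H3K4me3 stretches, whose sparse part includes much sequence before the last border, H3K79Hcy gave 2.95 (2.43 to 3.58) and KHcy 3.6 (2.95 to 4.41). The libraries came from the same cell line, and their counts are not replicates of each other.

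Just around the border the contrast was smaller but of the same direction. In the 10 Mb before the last KHcy border H3K79Hcy held 66 peaks and in the 10 Mb beyond it 3. KHcy held 64 and 3 peaks, and H3K4me3 held 132 and 20. Of 69 bins of 1 Mb between 3 and 72 Mb, 68 held an H3K79Hcy peak, 68 a KHcy peak and 67 an H3K4me3 peak. Of 57 bins of 1 Mb from 73 Mb to the end, 5 held an H3K79Hcy peak, 5 a KHcy peak and 23 an H3K4me3 peak. The longest run without a peak before the border was 1.15 Mb in H3K79Hcy, 1.25 Mb in KHcy and 2.28 Mb in H3K4me3. Beyond it the longest runs were 23.4 Mb (from 80.8 Mb), 25.3 Mb (from 80.8 Mb) and 16.7 Mb (from 98.3 Mb). The longest empty runs of both homocysteinylation libraries thus began at the same place, just after the peaks in Fzr1.

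H3K4me3 alternated between dense and sparse stretches before the last border. Its 4 dense stretches held 9.11, 10.9, 23.5 and 21.2 peaks per Mb in the order of position, and the 3 sparse stretches between them held 0.870, 3.44 and 3.62. In these 4 dense stretches together H3K79Hcy held 6.32 peaks per Mb and in the 3 sparse stretches between them 5.84, a ratio of 1.08 (0.888 to 1.32) whose interval included 1. KHcy held 6.71 and 5.03 per Mb, a ratio of 1.33 (1.09 to 1.64). The H3K4me3 ratio over the same sequence was 5.22 (4.19 to 6.56), a description, since the H3K4me3 counts placed these stretches. At single stretches, the sparse sequence from 25.8 to 38.3 Mb held 6.80 H3K79Hcy peaks per Mb and 3.44 H3K4me3 peaks per Mb, whereas the dense sequence from 38.3 to 44.3 Mb held 7 and 23.5.

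The dense H3K4me3 stretches were also richer in G and C. Their GC content was 41.4%, 42.0%, 43.7% and 43.2%, against 39.1%, 38.6% and 38.6% in the sparse stretches between. Across the 14 steps dense for KHcy, Spearman's correlation coefficient between peak count and GC content was 0.916 for H3K4me3, 0.383 for KHcy and 0.0442 for H3K79Hcy. Between peak count and the number of protein-coding genes the coefficient was 0.623 for H3K4me3, 0.814 for KHcy and 0.555 for H3K79Hcy. Between libraries the coefficient was 0.553 for H3K79Hcy and KHcy, 0.581 for KHcy and H3K4me3 and 0.0708 for H3K79Hcy and H3K4me3 over these 14 steps. Over all 26 steps the same 3 pairs gave 0.902, 0.845 and 0.748. Also over all 26 steps, the coefficient with GC content was 0.314 for H3K4me3, -0.0871 for KHcy and -0.172 for H3K79Hcy. With the number of protein-coding genes it was 0.225, 0.0425 and -0.00744, so neither order held over the whole chromosome as it did in the 14 steps. The part of GC content and gene number in the counts was not tested, and these correlations describe neighbouring steps of single libraries that share the same sequence and carry no p-value.

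**Figure D3:**
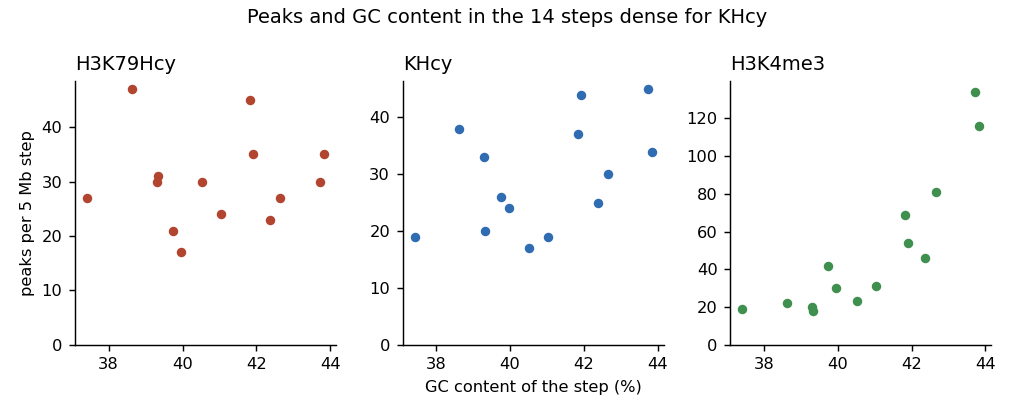
Peaks per 5 Mb step (y axes) against the GC content of the step in percent (x axis) for the 14 steps dense for KHcy, 1 point per step and 1 panel per library. H3K4me3 counts go up with GC content (coefficient 0.916), whereas H3K79Hcy counts show no order by it (coefficient 0.0442).

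GC content and gene number did not follow the density at the last border. Before the last KHcy border the sequence held 397 protein-coding genes, or 5.72 per Mb, at a GC content of 40.9%. Beyond it there were 648 genes, or 11.3 per Mb, at 42.0%. Genes were longer before the border, with a median of 27.3 kb against 10.7 kb, and 85 genes were over 100 kb before it against 54 beyond it. The 10 Mb beyond the border were the most gene-rich of the comparison, with 254 genes against 38 in the 10 Mb before it, and had a GC content of 46.0% against 41.4%. The share of 31-base words that recur in the genome, which bears on how uniquely reads can be placed, had a median of 3.30% in 1 kb windows before the border and 3.2% beyond it. Windows in which over 50% of the words recur made up 10.4% before the border and 9.41% beyond it.

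Peak widths were compared next. The median H3K79Hcy peak was 1200 bp wide both in the dense stretch (1000 to 1200) and in the sparse stretches (800 to 1200, the range of 5 peaks). The median KHcy peak was 2000 bp wide in the dense stretch (2000 to 2000) and 1400 bp in the sparse stretches (800 to 1600, the range of 7 peaks). The 7 sparse KHcy peaks were thus no wider than 1600 bp, which was also the lower quartile of the dense ones. The median H3K4me3 peak was 1800 bp wide in the dense stretches (1800 to 1800) and 1600 bp in all sparse stretches (1600 to 1800). Beyond the last KHcy border the 47 H3K4me3 peaks had a median of 1800 bp (1600 to 1800), the same as the 725 peaks before it.

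Reads per 200 bp, the reads of a peak divided by its number of 200 bp windows, differed little between the sides in H3K79Hcy and H3K4me3. In KHcy they were higher in the sparse stretches. H3K79Hcy had a median of 4.20 in the dense stretch (4.14 to 4.25) and 4 in the sparse stretches (3.83 to 6). H3K4me3 had 3.50 in the dense (3.44 to 3.57) and 3.63 in the sparse stretches (3.50 to 3.71). KHcy had 3.30 in the dense stretch (3.22 to 3.36) and 4.20 in the sparse stretches (3.71 to 11.9, the range of 7 peaks). Of these 7, 3 lay in 1 cluster in Fzr1 with 5.25, 6.14 and 11.9 reads per 200 bp, and the other 4 held 3.71 to 4.20. The sparse KHcy peaks were also narrower, and reads per 200 bp were not compared at equal width. The background of the libraries was 1.59 reads per 200 bp for H3K79Hcy, 1.49 for KHcy and 1.38 for H3K4me3. Against it the median peak was 2.64-fold in dense H3K79Hcy, 2.22-fold in dense KHcy and 2.54-fold in dense H3K4me3 sequence. The sparse stretches therefore held far fewer peaks. The median height of those they held was close to the dense median in H3K79Hcy and H3K4me3 and above it in KHcy. Only peaks that passed the caller's cutoff are in the lists, on both sides alike. Similar medians can follow from that cutoff, so they describe the listed peaks and not the signal of the stretches.

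**Figure D4:**
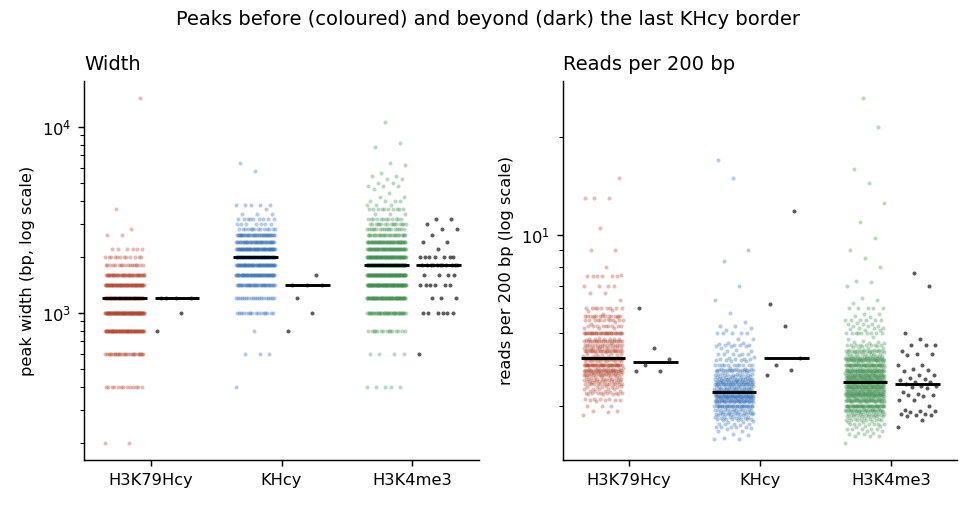
Width in bp (left, log axis) and reads per 200 bp (right, log axis) of every chromosome 10 peak, 1 point per peak, before (coloured) and beyond (dark) the last KHcy border, with the median of each set as a black line. The 6 H3K79Hcy, 7 KHcy and 47 H3K4me3 peaks beyond the border lie within the range of those before it.

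The peaks of largest reads per 200 bp lay in the dense sequence, with 1 exception. A peak outside genes near E030030I06Rik led the chromosome 10 peaks of all 3 lists. It held 105 reads at 15.0 reads per 200 bp in H3K79Hcy (chr10:21862001-21863400, 9.42-fold over the background). In KHcy it held 85 reads at 17 per 200 bp, and in H3K4me3 158 reads at 26.3 per 200 bp. In this peak 30.1% to 34.6% of the 31-base words recur in the genome, above the medians for the chromosome. A second group lay beside the assembly gap at 57.6 Mb, around Dux, a homeobox gene of the early embryo that is present in many copies. There H3K79Hcy held 13.0 reads per 200 bp at chr10:57689201-57689600 and at chr10:57701201-57701400, and KHcy held 15.0 at the first of these. H3K4me3 held 16.0 over Dux itself (chr10:57686601-57688400; 144 reads). Recurring words made up 60.8%, 74.1% and 72.4% of these 3 regions, so reads there cannot be assigned to 1 copy with certainty.

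The widest H3K79Hcy peak of the chromosome stood at the same gap and spanned 14200 bp with 416 reads (chr10:57669601-57683800), and the widest KHcy peak lay within it (6400 bp, 146 reads). The widest H3K4me3 peak, 10600 bp with 219 reads, covered the starts of Nr2e1 and Ostm1 (chr10:42296401-42307000). Nr2e1, also called Tlx, is a nuclear receptor that maintains neural stem cells. Another H3K4me3 peak of high read density lay outside genes, 29.4 kb from Atg5, with 21.5 reads per 200 bp (chr10:43958401-43958800). The exception to the dense sequence was the KHcy peak in Fzr1 (chr10:80832601-80834200), with 95 reads at 11.9 reads per 200 bp, 7.99-fold over the background.

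All peaks of the homocysteinylation libraries beyond their last borders can be named. H3K79Hcy had 5, namely that in Vmn2r82 with 20 reads, 1 over an exon of Fzr1 (chr10:80833401-80834200) with 24 reads, and 3 outside genes. The latter stood at chr10:104251401-104252600 with 23 reads, at chr10:110007001-110008200 with 23 reads and at chr10:112327201-112328400 with 27 reads. KHcy had 7, of which 3 lay over exons of Fzr1 within 1 cluster, with 21, 43 and 95 reads. The other 4 lay in introns of Ppfia2, a presynaptic scaffold gene, with 24 reads, and of Trhde, a peptidase gene, with 27 reads, and outside genes with 26 and 21 reads. Fzr1 was thus the only place beyond the border where both homocysteinylation libraries had overlapping peaks, and H3K4me3 had 0 peaks in it. The 3 KHcy peaks in Fzr1 had no recurring 31-base words and a GC content of 59.1% to 61.0%, against a median of 40.4% for the KHcy peaks before the border.

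H3K4me3 kept 47 peaks beyond the last KHcy border, 30 of them between 75 and 85 Mb among 264 genes and 16 from 85 Mb to the end among 375 genes. A cluster of 5 lay around the zinc finger gene Zfp873 (chr10:81510201-81533200; 28 to 53 reads each) and another of 5 lay nearest to Aldh1l2, a mitochondrial folate enzyme gene (chr10:82890801-82920200; 24 to 42 reads each). Both clusters were named after their values were seen. The largest peak by reads was at Gm8290 (chr10:81469601-81472800; 56 reads). Recurring words made up 54.9% of it, so its reads cannot be placed with certainty. The highest peak by reads per 200 bp, 7.67, lay over exons of Eef2, the translation elongation factor (chr10:80641401-80642000; 23 reads). Peaks over exons beyond the border also stood in Snrpd3, Ap3d1, Syn3 and Timp3, Hsp90b1, Cpm, Lemd3, Cdk4 and 2610008E11Rik, which were named after their values were seen.

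Gene starts, where H3K4me3 is known to sit, showed the same split. H3K4me3 peaks covered 53 of 397 gene starts before the last KHcy border (13.4%, 10.4 to 17) and 3 of 648 beyond it (0.463%, 0.158 to 1.35). The 3 were those of Ap3d1, a subunit of the adaptor complex for lysosomal sorting, with 36 reads, Gm8290 with 56 reads and Lemd3, an inner nuclear membrane protein, with 25 reads. Recurring words made up 54.9% of the Gm8290 peak, against 0% of the Ap3d1 peak and 6.55% of the Lemd3 peak. The reads of the Gm8290 peak therefore cannot be placed with certainty. Before the border only 45 of 725 H3K4me3 peaks (6.21%, 4.67 to 8.2) covered a gene start, and beyond it 3 of 47 (6.38%, 2.20 to 17.2). The share of H3K4me3 peaks at gene starts was therefore alike and low on both sides, although the number of peaks differed.

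KHcy peaks covered 1.21% of the sequence before the border and 0.0153% beyond it. They covered 8 of 397 gene starts before the border (2.02%, 1.02 to 3.93) and 0 of 648 beyond it. The 8 starts were those of Esr1, Fbxo30, Rps12, Vgll2, Gm10807, Supv3l1, Dna2 and Ado, with 23 to 52 reads, which were named after their values were seen. Among them Esr1 is the estrogen receptor alpha, Rps12 a protein of the small ribosomal subunit, Dna2 a nuclease and helicase of DNA replication, and Ado a thiol dioxygenase. H3K79Hcy peaks covered 0.741% of the sequence before the border and 0.0115% beyond it. They covered 2 of 397 gene starts before the border (0.504%, 0.138 to 1.82) and 0 of 648 beyond it. The 2 starts were those of Gm10807 with 68 reads and of Pcbd1, a tetrahydrobiopterin enzyme, with 33 reads. In both libraries the interval before the border included the covered share of the sequence. Gm10807 lies beside the assembly gap at 57.6 Mb and was covered in all 3 libraries.

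Gene bodies were then compared. H3K79Hcy had a peak in 92 of 397 genes before the border (23.2%, 19.3 to 27.6) and in 2 of 648 beyond it (0.309%, 0.0847 to 1.12). KHcy had a peak in 105 (26.4%, 22.4 to 31) and 3 (0.463%, 0.158 to 1.35), and H3K4me3 in 165 (41.6%, 36.8 to 46.5) and 18 (2.78%, 1.76 to 4.35). Since genes were longer before the border, the shares were also taken by length. Among genes over 100 kb, H3K79Hcy had a peak in 48 of 85 before the border (56.5%, 45.9 to 66.5) and 0 of 54 beyond it (Wilson upper bound 6.64%, while the floor of 3 counts is 5.56%). KHcy had 53 of 85 (62.4%, 51.7 to 71.9) and 2 of 54 (3.70%, 1.02 to 12.5), and H3K4me3 had 53 of 85 (62.4%, 51.7 to 71.9) and 3 of 54 (5.56%, 1.91 to 15.1). Among genes of 30 to 100 kb the shares before the border were 30.5%, 31.4% and 58.1%, and beyond it 0.847%, 0% and 5.93%. In every length class and library the intervals of the shares before and beyond the border were apart.

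**Figure D5:**
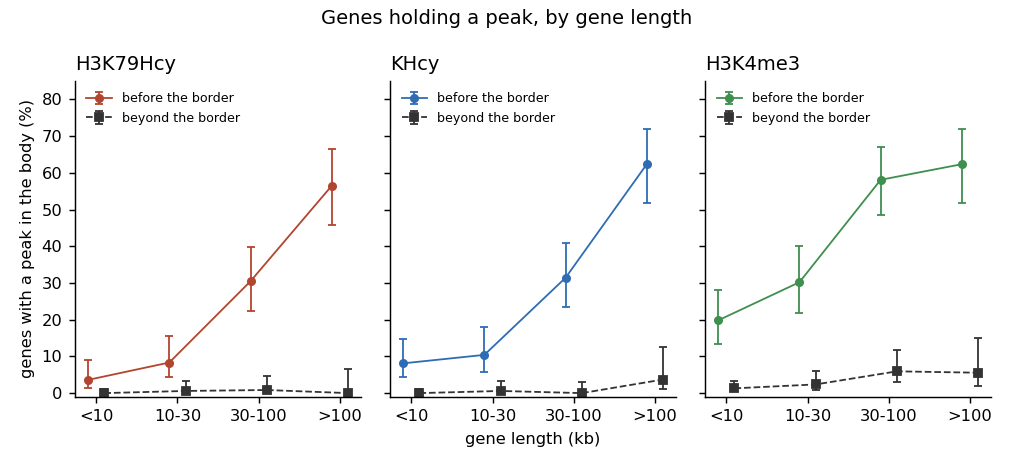
Share of protein-coding genes with a peak in the body in percent (y axis) by gene length class in kb (x axis), before (circles, coloured) and beyond (squares, dark) the last KHcy border, with 95% Wilson intervals. Shares go up with length before the border, to 56.5% in H3K79Hcy and 62.4% in KHcy and H3K4me3 for genes over 100 kb, and stay at or below 5.93% beyond it.

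The position of peaks relative to genes was much the same in the dense stretches of the homocysteinylation libraries. Of the dense H3K79Hcy peaks 36.8% (32.4 to 41.5) overlapped a protein-coding gene, of the dense KHcy peaks 42.2% (37.6 to 47.0) and of the dense H3K4me3 peaks 45.6% (41.8 to 49.5). Bodies of protein-coding genes made up 38.2%, 38.2% and 48.2% of the dense sequence of these libraries. Each interval included that share, so the overlap was near what the sequence itself holds. Ctnna3 (chr10:62892846-64466415), a catenin of cell junctions and the longest gene named here at 1574 kb, held 11 H3K79Hcy peaks with 245 reads, 11 KHcy peaks with 354 reads and 14 H3K4me3 peaks with 384 reads. Lama2, a laminin chain of basement membranes, held 7 H3K79Hcy peaks with 174 reads, 1 KHcy peak with 28 reads and 0 H3K4me3 peaks. Esr1 followed in H3K79Hcy, with 6 peaks and 158 reads. Pde7b, a cyclic AMP phosphodiesterase, held 4 H3K79Hcy, 5 KHcy and 6 H3K4me3 peaks. For H3K4me3 the leading genes were Cdh23, a cadherin that pairs with Pcdh15 in hair cells, with 18 peaks and 694 reads, and Col13a1, a transmembrane collagen, with 14 peaks and 502 reads. H3K79Hcy held 1 peak in Cdh23 and 0 in Col13a1, and KHcy held 1 and 2.

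In the H3K4me3-sparse sequence between its dense stretches, Sim1, a transcription factor of the hypothalamus, held 3 H3K4me3 peaks with 149 reads, 1 of them over its start, and 2 KHcy peaks. Lin28b, which blocks let-7 maturation in stem cells, held 3 H3K4me3 peaks with 112 reads, and Hs3st5, a heparan sulfate sulfotransferase, held 2 with 54 reads. Neither Lin28b nor Hs3st5 held a homocysteinylation peak.

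Gene lists with members on both sides were read against the shares over all genes given above, namely 23.2%, 26.4% and 41.6% of genes with an H3K79Hcy, KHcy and H3K4me3 peak before the border and 0.309%, 0.463% and 2.78% beyond it. With so few genes holding a peak beyond the border, a count of 0 in a short list there is the usual value and no result about the list. Of 16 genes of histone and DNA modification, 7 started before it and 9 beyond it. All 7 before it held an H3K4me3 peak in the body, 4 held a KHcy peak and 1, Jmjd1c, held H3K79Hcy peaks. The 7 ran from 27.3 kb (Hdac2) to 183 kb (Arid5b), at or above the median of 27.3 kb for all genes before the border. Of genes of 30 to 100 kb before it, 30.5%, 31.4% and 58.1% held an H3K79Hcy, KHcy and H3K4me3 peak. Over 100 kb the shares were 56.5%, 62.4% and 62.4%. The part of gene length in the counts of this list was not tested. Tet1, which oxidises methylated cytosine, held 5 KHcy peaks and 1 H3K4me3 peak, and Jmjd1c, a histone demethylase, held 2 H3K79Hcy, 3 KHcy and 4 H3K4me3 peaks. Arid5b held 2 KHcy peaks and H2afy2, a macroH2A variant, held 1. Hdac2, Prdm1 and Sirt1 held 1, 3 and 3 H3K4me3 peaks and no homocysteinylation peak. None of the 9 beyond the border held a peak in any library, and these were Prmt2, Dnmt3l, Mbd3, Dot1l, Sirt6, Nap1l1, Hmga2, Baz2a and Smarcc2. Dot1l, the methyltransferase of H3 lysine 79, was among them (chr10:80217951-80258206).

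Of 6 genes of folate, methionine and related metabolism, Mthfd1l started before the border and 5 started beyond it. Mthfd1l, a mitochondrial enzyme that makes formate from folate-bound carbon, held 1 H3K79Hcy peak with 17 reads, 5 KHcy peaks with 168 reads and 2 H3K4me3 peaks with 59 reads, 1 of which covered its start. Of the genes beyond it, Ftcd, Slc19a1, Gamt and Shmt2 held 0 peaks in all 3 libraries. Slc19a1 encodes the reduced folate carrier and Shmt2 a mitochondrial serine hydroxymethyltransferase.

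Of 16 genes listed here under the heading of neural development, 9 started before the border. Of these 9, 6 held an H3K4me3 peak, 2 a KHcy peak and 1 an H3K79Hcy peak. Eya4, a transcriptional coactivator of sensory organs, held 2 H3K79Hcy, 3 KHcy and 1 H3K4me3 peak over its start. Tcf21, Sim1 and Neurog3, which encode basic helix-loop-helix factors, had H3K4me3 peaks over their starts as well. Marcks, Atoh7 and Egr2 held 0 peaks although they lie before the border. All 7 beyond it held 0 peaks in the 3 libraries, among them Gli1, an effector of hedgehog signalling, and Igf1, a growth factor.

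Of 20 long synaptic and adhesion genes, a list that does not hold every such gene (Ppfia2 is not in it), 11 started before the border and 9 beyond it. Of the 11, 10 held H3K79Hcy peaks (32 peaks in all), 8 held KHcy peaks (29) and 6 held H3K4me3 peaks (25), beside 56.5%, 62.4% and 62.4% of all genes over 100 kb before the border. The 11 ran from 72.6 kb (Nkain2) to 1574 kb (Ctnna3), and genes over 100 kb were not split further by length. This comparison is therefore not matched for length, and the part of length in these counts was not tested. Besides Ctnna3, Lama2 and Pcdh15, Syne1, a giant protein that links nuclei to the cytoskeleton, held 3 H3K79Hcy and 5 KHcy peaks, and Utrn, the dystrophin relative, held 3 H3K79Hcy and 3 H3K4me3 peaks but 0 KHcy peaks. Ank3, an ankyrin of the axon initial segment, held 2, 3 and 2 peaks, and Grik2, a kainate receptor subunit, held 1, 2 and 0. Ptprk, a receptor phosphatase, was the 1 gene of the 11 without an H3K79Hcy peak. Of the 9 beyond the border, Trhde held 1 KHcy peak and Syn3, a synapsin, 1 H3K4me3 peak. The other 7, Anks1b, Tmtc2, Ptprq, Syt1, Nav3, Grip1 and Srgap1, held 0 peaks in all 3 libraries although each is over 100 kb long.

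Of 429 dense H3K79Hcy peaks 26 (6.06%, 4.17 to 8.73) overlapped a KHcy peak by at least 1 bp and 28 (6.53%, 4.55 to 9.27) an H3K4me3 peak. Of 417 dense KHcy peaks 27 (6.47%, 4.49 to 9.26) overlapped an H3K79Hcy peak and 39 (9.35%, 6.92 to 12.5) an H3K4me3 peak. Of 631 dense H3K4me3 peaks 29 (4.60%) overlapped an H3K79Hcy peak and 39 (6.18%) a KHcy peak. In the sparse stretches 1 of 5 H3K79Hcy and 1 of 7 KHcy peaks overlapped each other, both in Fzr1, and 0 overlapped an H3K4me3 peak. Over the whole lists these shares were higher for the homocysteinylation libraries, with 13.9% of H3K79Hcy peaks on a KHcy peak and 15.4% on an H3K4me3 peak, and 12.9% of KHcy peaks on an H3K79Hcy peak and 16.5% on an H3K4me3 peak. For H3K4me3 they were 5.19% and 6.18%, both within the chromosome 10 intervals of 3.22% to 6.52% and 4.55% to 8.34%.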

How the data were processed

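According to the methods and the submitters' processing notes, the authors used Bowtie 2 and the mm9 assembly for alignment, MACS 1.4.2 for peak calling and an input control as a filter, and a legend names SICER as the caller. The deposited lists give a read count per peak, the peak length in whole 200 bp windows and a caller's score whose scale no header names. The remaining columns besides position hold hyphens only. Library totals, input, IgG, HTL-treated cells and RNA-seq were not used here, so the depth behind a missing peak is unknown. The files hold 11178, 14365 and 26673 reads in the chromosome 10 peaks of H3K79Hcy, KHcy and H3K4me3.

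A peak belonged to the step or stretch that held its centre, and a gene to that of its start. The background per 200 bp was solved from the deposited score of the peaks of 1 window (27, 8 and 14 peaks), read as minus the natural log of the Poisson probability of the count, and gave the same value for every such peak of a library. The genome was NCBIM37 (mm9, chromosome 10 of 129993255 bases) with the GENCODE M1 annotation, 1045 protein-coding genes on chromosome 10. The change point, the interval of the density ratios, the background and the overlap of peaks (Python 3.11.15, scipy 1.17.1) were tested on simulated data. The step limit and the other intervals were not. Recurring words were 31-base words found more than once in the genome.

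Named peaks were the 3 of largest reads per 200 bp in each library and those nearest to each border. Named genes were the 3 with the most peaks in the dense and sparse stretches and 4 gene lists, with the longest annotated entry of each symbol. Members, lists and the split at the last KHcy border were chosen with earlier results of these data known. Some genes of the lists are not reported here by name.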

Additional observations from a re-analysis of the deposited data

How the results depend on the processing

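Of 148 values under alternative settings, 104 stayed within the counting interval of the reported value, or within 1.5 times for counts of steps, and 44 moved. The 14 alternative ratios of peak density ran from 6.52 to 70.3. With borders at the 5 Mb steps the ratio was 28.7 for H3K79Hcy and 6.52 for H3K4me3, and over 10 Mb on each side of the last KHcy border H3K79Hcy gave 22.02, KHcy 21.4 and H3K4me3 6.61. With a limit of 10 peaks H3K4me3 had 16 dense steps. With the stricter list the first borders of H3K79Hcy and KHcy lay at 11.3 and 5.5 Mb and the last H3K4me3 border at 71.6 Mb, and with 50 kb bins the last KHcy border lay at 72.55 Mb. Dense peaks of the stricter list had median widths of 1400, 2400 and 2200 bp in H3K79Hcy, KHcy and H3K4me3, sparse H3K4me3 peaks 2000 bp, and merged dense H3K4me3 peaks 2000 bp. Its dense H3K4me3 peaks held 3.67 reads per 200 bp. Over all annotated genes, dense against sparse sequence held 8.78 against 15.2, 8.81 against 15.1 and 11.4 against 11.9 genes per Mb in the same order of libraries. With the stricter list, 9.87%, 10.4% and 37.1% of dense genes held a peak, and in sparse sequence 0.153% for KHcy and 2.25% for H3K4me3. Among genes over 100 kb in each library's own stretches the shares were 57.1%, 63.9% and 81% in dense and 0%, 3.57% and 11.1% in sparse sequence. Split at the last KHcy border, H3K4me3 had 41.6% and 2.78%. With the stricter list in both libraries, 9.68% of dense H3K79Hcy peaks overlapped KHcy and 11.3% H3K4me3, 16.2% of dense KHcy peaks overlapped H3K4me3, and 0% of sparse H3K4me3 peaks overlapped H3K79Hcy. With an overlap of at least 50% of the peak, 4.32% of dense KHcy peaks overlapped H3K79Hcy and 6.24% H3K4me3, 3.96% of dense and 0.709% of sparse H3K4me3 peaks overlapped KHcy, and 0% of sparse H3K4me3 peaks overlapped H3K79Hcy. The cause of these shifts was not tested. The settings with 10 Mb on each side, without mostly recurring peaks, with genes over 100 kb and split at the KHcy border were chosen after seeing the data. No paired analysis was possible because each antibody had 1 library, and the lack of replicates and of library totals limits every value above.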
